A study of Anastrepha ludens with 9 samples.

Results

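Abundant assembled genes with a single contig were examined in early embryos of Anastrepha ludens, the Mexican fruit fly. A contig is a transcript sequence put together from overlapping reads, and an assembled gene is the group of contigs to which the assembler gave the same gene name. A gene was a member if it listed exactly 1 contig, if that contig was 1000 to under 2000 bases long, and if its mean over the 3 libraries of a stage was at least 100 and under 1000 transcripts per 1000000 (TPM, a level corrected for contig length that sums to 1000000 in each library). By this rule there were 531 members among the 198130 assembled genes of the 3 stages, with 230 of 45798 in syncytium embryos, 156 of 76713 at cellularization and 145 of 75619 at gastrulation. Contig number, length and mean TPM chose the members, so their number, share and level are described without a test.

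Embryos were kept at 25 °C in water and were collected at 0 to 9 h (syncytium), 9 to 18 h (cellularization) and 18 to 30 h (gastrulation), with 3 libraries per stage and no treatment or genotype named in the labels. The series calls the triplicates biological, and how many embryos made up a library is not stated in the labels. Each stage was quantified on an assembly of its own, whose contig names do not carry over to the next, so members were set per stage and no gene was followed between stages. With 1 assembly per stage, an effect of the assembly and an effect of the stage cannot be told apart below. The files pair no gene symbol with the contigs, and 0 of the names occur in RefSeq's table for the genome idAnaLude1.1, so no function can be given for a member.

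In insects the first nuclear divisions take place in a syncytium, a shared cytoplasm without membranes between the nuclei, and run on RNA that the mother stored in the egg. Around cellularization, when membranes enclose the nuclei, much of the maternal RNA is degraded and the embryo's own genome takes over transcription. Gastrulation then folds the cell sheet into germ layers. In Drosophila melanogaster, many of the earliest genes transcribed by the embryo are short and have few or no introns. A gene with few introns offers few ways of splicing, and an assembled gene with 1 contig serves here as a stand-in for a compact gene without alternative transcripts. In the RefSeq table, 10585 of 14586 protein-coding genes (72.6%) list 1 transcript.

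The label of a gene without alternative transcripts holds only at the level of the assembler's gene name. Trinity, whose naming pattern the contigs carry, groups genes that share sequence in its graph into a component. Of the members, 53 of 230 in the syncytium (23.0%), 43 of 156 at cellularization (27.6%) and 31 of 145 at gastrulation (21.4%) were the only gene of their component. Among genes with several contigs of the same length and level the shares were alike, at 24.8%, 23.5% and 19.6%. Over all assembled genes they were 68.3%, 76.9% and 74.99%. A member with another gene in its component, called a partner here, may be 1 of several versions of a gene that the assembler named apart. The members are therefore called single-contig genes below.

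The number of members was highest in the syncytium and lower at both later stages. At cellularization there were 156 members, a ratio of 0.678 to the 230 of the syncytium, and at gastrulation 145, a ratio of 0.630. Genes of the same length and level with several contigs numbered 266, 196 and 224, so that their ratios to the syncytium were 0.737 and 0.842. With the rule applied to each library alone, the members numbered 225, 223 and 230 in syncytium embryos, 160, 134 and 173 at cellularization, and 148, 134 and 142 at gastrulation. All syncytium libraries lay above all later ones, while cellularization and gastrulation overlapped.

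TPM is a share of a fixed total, and the total left for these genes differed between stages. Genes at 1000 TPM or more held 30.7% of the TPM in syncytium embryos, 40.1% at cellularization and 38.8% at gastrulation. When TPM was rescaled to 1000000 over the genes under 1000 TPM, the rule gave 351, 278 and 296 genes, so that gastrulation was no longer the lowest. When the level was set by rank, from 108 to 1584 as in the syncytium, it gave 230, 196 and 194. The syncytium had the highest number on each of these scales, which were chosen after the data were seen.

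The share of single-contig genes among all genes of this length and level was 46.4% in the syncytium (230 of 496), 44.3% at cellularization (156 of 352) and 39.3% at gastrulation (145 of 369). With the rule applied to each library alone the shares were 45.9% ± 0.431, 44.6% ± 0.771 and 39.1% ± 0.923 (SD, n = 3 each). The 3 libraries of a stage share 1 list of contigs, so this SD does not cover the assembly itself. The members made up 15.6%, 13.5% and 12.8% of all genes at 100 to under 1000 TPM.

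**Figure D1:**
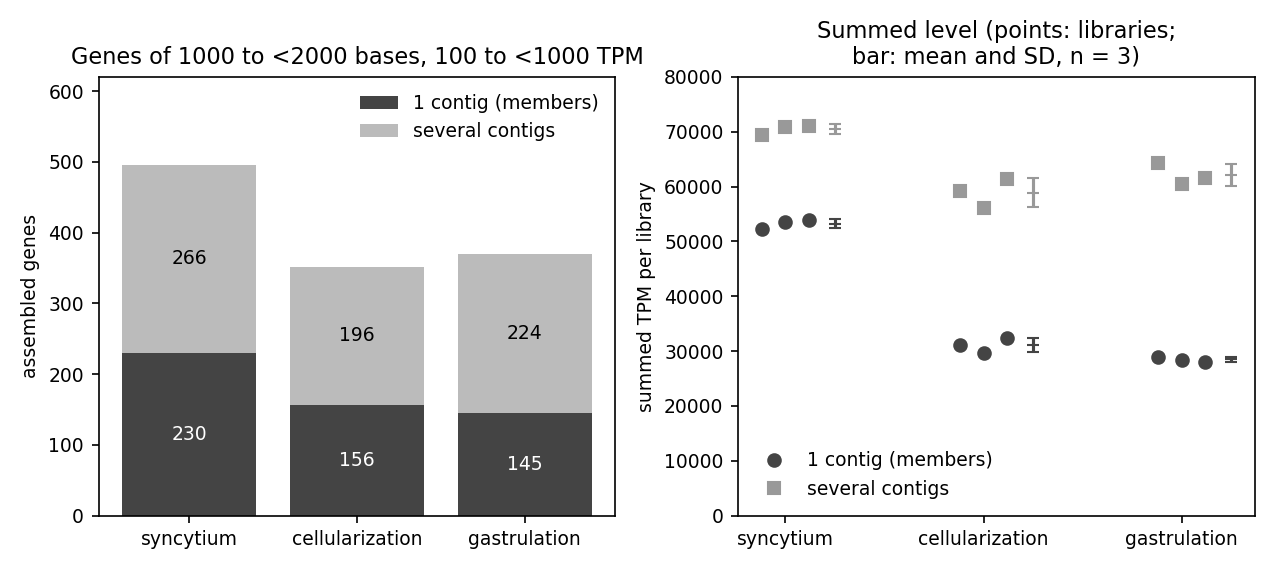
Left, the number of assembled genes of 1000 to under 2000 bases at 100 to under 1000 TPM in each stage, divided into members with 1 contig (dark) and genes with several contigs (light). Right, the summed TPM of both classes in each library, with the mean and SD of 3 libraries beside the points. The members hold 52275 to 53865 TPM in the syncytium libraries and 28088 to 32301 in the later ones.

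The members' summed TPM in the syncytium libraries was 52275, 53547 and 53865, in the cellularization libraries 31188, 29716 and 32301, and in the gastrulation libraries 28971, 28446 and 28088. The means were 53229 ± 841, 31068 ± 1297 and 28502 ± 444 TPM (SD, n = 3 each). No stage overlapped with another, and the gap between cellularization and gastrulation was the narrowest. The summed level at cellularization had a ratio of 0.584 to the syncytium, below the ratio of 0.678 for the number of members, since the mean level per member was also lower, at 231, 199 and 197 TPM over the stages. Genes with several contigs held 70441 ± 890, 58906 ± 2660 and 62103 ± 1926 TPM, and their mean level per gene was 265, 301 and 277 TPM. Members held 43.0% ± 0.0792 of the TPM of their length and level in syncytium embryos, 34.5% ± 0.0783 at cellularization and 31.5% ± 0.469 at gastrulation. Of all estimated counts they held 3.84% ± 0.112, 2.51% ± 0.0126 and 2.34% ± 0.0835. In RNA from whole embryos, a lower level cannot be divided into fewer cells that express a gene and less RNA per cell.

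Most members lay in the lower part of the level range, and the upper part was thinner in the later stages. In the syncytium 136 members were at 100 to under 200 TPM, 76 at 200 to under 500 and 18 at 500 to under 1000. The corresponding numbers were 105, 45 and 6 at cellularization and 100, 42 and 3 at gastrulation. The share with 1 contig among genes of the same length was alike between stages in the lowest range, at 47.9%, 52.2% and 46.9%. In the range from 200 to under 500 TPM it was 47.5%, 40.9% and 33.9%, and in the highest it was 34.6% (18 of 52 genes), 14.6% (6 of 41) and 9.38% (3 of 32). Above the members' range, at 1000 TPM or more, 19 of 37 genes of this length had 1 contig in the syncytium (51.4%), 14 of 43 at cellularization (32.6%) and 10 of 49 at gastrulation (20.4%). Contig number has no replicate within a stage, so these differences were not tested.

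The members' share was 46.4%, 44.3% and 39.3%, within the range over stages of genes of the same length at 1 to under 100 TPM. Among genes of 1000 to under 2000 bases at 10 to under 100 TPM, 47.0%, 43.1% and 44.8% had 1 contig, and at 1 to under 10 TPM 43.1%, 38.9% and 36.9%. The members' share lay between these values in the syncytium and at gastrulation, and above both at cellularization. Below 1 TPM the share was 80.6%, 78.2% and 79.1%. At 100 to under 1000 TPM the share also differed by length. Genes of 500 to under 1000 bases had 1 contig in 63.1%, 58.4% and 56.1% of cases, genes of 2000 to under 3000 bases in 30.9%, 26.6% and 23.3%, and genes of 5000 bases or more in 6.06%, 9.78% and 2.22%. Within the members' window, genes of 1000 to under 1250 bases had 1 contig in 51.1%, 55.8% and 44.9% of cases and genes of 1750 to under 2000 bases in 41.2%, 44.0% and 36.6%. The share did not fall steadily in between, since genes of 1500 to under 1750 bases had 47.7%, 36.7% and 32.9%.

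**Figure D2:**
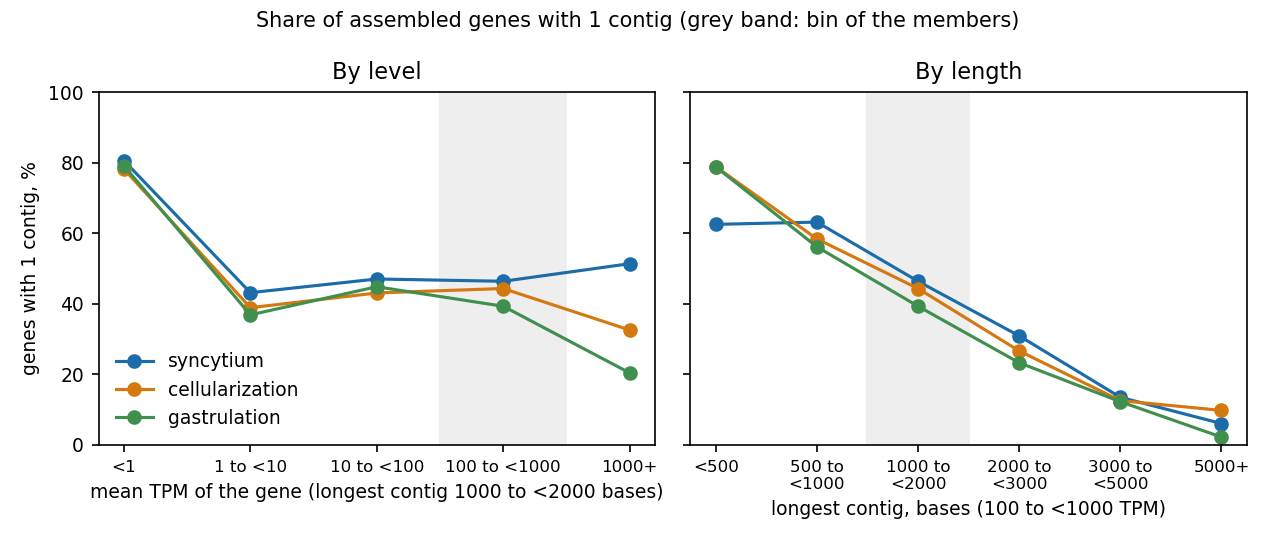
Share of assembled genes with 1 contig, in percent, for genes of 1000 to under 2000 bases by mean TPM (left) and for genes at 100 to under 1000 TPM by longest contig in bases (right), with 1 line per stage. The grey band marks the bin of the members, at 46.4%, 44.3% and 39.3%, between higher shares of shorter genes and lower shares of longer ones.

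The members' median length was 1475 bases in syncytium embryos, 1488.5 at cellularization and 1359 at gastrulation. The middle 50% of them lay between 1210 and 1687, 1210 and 1716, and 1226 and 1737 bases, so the stages covered nearly the same range. Genes with several contigs had median longest contigs of 1519, 1552.5 and 1510 bases and a median of 3 contigs in each stage. Members of 1000 to under 1250 bases were the largest of 4 equal length classes in all stages, with 69, 48 and 44 members.

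The single members show what these levels mean in reads. The most abundant member of the syncytium, TRINITY_DN5550_c1_g1, is 1380 bases long and was at 878, 968 and 894 TPM, on 18125, 19713 and 31667 estimated counts. The most abundant at cellularization, TRINITY_DN5078_c0_g2 of 1567 bases, was at 860, 999 and 786 TPM, and that of gastrulation, TRINITY_DN6983_c0_g2 of 1646 bases, at 907, 919 and 865 TPM. The coefficients of variation (CV, the SD as a share of the mean) of these members over the 3 libraries were 5.26%, 12.2% and 3.17%. The lowest count of any member in a library was 812, and the median per library ranged from 3533 to 6627.

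At the edges of the level range the values were as follows. In the syncytium TRINITY_DN34459_c0_g1, the member nearest to the lower threshold, had a mean of 100.2 TPM, and TRINITY_DN4454_c0_g2 just below it 99.8 TPM. TRINITY_DN1965_c0_g2 lay above the upper threshold with 1022 TPM. At cellularization the lowest member, TRINITY_DN6219_c0_g3, had 100.1 TPM, TRINITY_DN49726_c0_g1 had 99.7 TPM, and the first gene above the range, TRINITY_DN5278_c0_g1, 1148 TPM. At gastrulation the lowest member, TRINITY_DN6108_c0_g1, had 100.1 TPM, TRINITY_DN8354_c0_g2 had 99.6 TPM, and TRINITY_DN8514_c0_g1 had 1077 TPM. Genes on both sides thus differed by less than the spread between their libraries at the lower threshold.

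Most members stayed inside the level range in each single library. Of the members, 208 of 230 in the syncytium were inside the level range in every library, against 133 of 156 at cellularization and 124 of 145 at gastrulation. The others were below 100 TPM in at least 1 library, except 1 member at cellularization that passed 1000 TPM. Members were also chosen on 2 libraries and looked up in the third, which the choice had not used. The held-out library kept 94.7%, 95.2% and 97.4% of them in the range in the syncytium, 96.8%, 81.1% and 98.6% at cellularization, and 94.3%, 87.0% and 94.4% at gastrulation, for replicates 1, 2 and 3 in turn. The low value at cellularization was replicate 2, and the difference between stages did not pass the test (exact permutation test over 9 libraries, two-sided, p = 0.793, adjusted 0.793 over 4 tests). Each held-out share also rests on the other libraries of its stage, so the tested values are not independent. For genes with several contigs the shares were 95.2%, 98.1% and 96.2% in the syncytium and 96.4%, 78.8% and 95.1% at cellularization. At gastrulation they were 92.8%, 92.3% and 96.0%. Replicate 2 of cellularization was thus the lowest in both classes, and neither class was higher in every library.

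The rule did not use the spread between libraries. The median CV over the members was 3.91% in syncytium embryos, 8.27% at cellularization and 6.55% at gastrulation. It was 3.90%, 11.7% and 7.79% over genes with several contigs, and 4.11%, 10.9% and 7.52% over all genes at 100 to under 1000 TPM. Counting error alone, taken as 1 over the square root of the mean count, gave the members a median CV of 1.46%, 1.55% and 1.53%. Of the members, 199 of 230, 151 of 156 and 136 of 145 exceeded their own value. By edgeR's tagwise dispersion, fitted on all genes of a stage, the members' median biological coefficient of variation was 0.0664, 0.140 and 0.121. In the same fits it was 0.0675, 0.146 and 0.123 for genes with several contigs and 0.0645, 0.145 and 0.121 for all genes at 100 to under 1000 TPM.

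Per library, the spread was measured as the median over members of the absolute log2 ratio of TPM to the mean of the stage, with 1 TPM added to both. It was 0.042, 0.033 and 0.034 in the syncytium, 0.046, 0.12 and 0.091 at cellularization, and 0.080, 0.085 and 0.033 at gastrulation. Replicate 3 of gastrulation lay within the range of the syncytium libraries, and replicate 1 of cellularization was just above it. The other later libraries were further from their stage mean. The difference between stages did not pass the test (exact permutation test over 9 libraries, p = 0.15, adjusted 0.2 over 4 tests). The 3 libraries of a stage share the mean, so the values in this test and in the pairs below are not independent. Without gastrulation replicate 2 the p was 0.0429. On leaving out 1 library, the mean of its stage comes from 2 libraries, whose deviations then nearly mirror each other and tend to be smaller. Such values, here and below, therefore do not measure the effect of the omitted library alone. Between cellularization and the syncytium no library overlapped (difference 0.049, exact p = 0.1, the smallest that 3 against 3 allow, adjusted 0.3 over 3 pairs), and the difference was 0.012 without cellularization replicate 2. Gastrulation minus syncytium was 0.030 (exact p = 0.3, adjusted 0.45 over 3 pairs), and 0.0088 without gastrulation replicate 2 or 0.016 without replicate 1. Gastrulation minus cellularization was -0.019 (exact p = 0.5), and its sign turned without cellularization replicate 2 (0.018) and with CPM (counts per 1000000) scaled by TMM, edgeR's trimmed mean of M-values (0.0068).

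The direction of these differences was shared by many members of a library. At cellularization 94 of 156 members (60.3%) were highest in replicate 3, 35 in replicate 1 and 27 in replicate 2, and the median log2 ratio to the stage mean was 0.067, 0.018 and -0.091 in the same order. At gastrulation 77 of 145 (53.1%) were highest in replicate 1, where the median log2 ratio was 0.033, and 19 (13.1%) in replicate 3. In the syncytium 100 of 230 (43.5%) were highest in replicate 3. Of all genes at 100 to under 1000 TPM, 55.7%, 48.6% and 31.8% were highest in cellularization replicate 3, gastrulation replicate 1 and syncytium replicate 3. In gastrulation replicate 3 the share was 23.5% of all genes of that level. The most frequent highest library at cellularization and gastrulation was the same for members as for the level range as a whole. In the syncytium it differed, since all genes of that level were most often highest in replicate 1 (37.2%), where 22.6% of members were. In that library the members' median log2 ratio was -0.019, and that of genes with several contigs -0.015, beside -0.00096 for all genes of that level. The lower value in replicate 1 was thus not particular to members. In syncytium replicate 3 these medians were 0.018, 0.0042 and -0.0024. Cellularization replicate 3 had 29226591 estimated counts, the fewest of its stage, and syncytium replicate 3 had 51201882, the most of its stage. The part of library depth or of the make-up of the pool in this pattern was not tested.

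Compared with genes of the same length and level that had several contigs, members deviated less in 7 of 9 libraries. The deviation of those genes was 0.040, 0.035 and 0.030 in the syncytium, 0.059, 0.18 and 0.13 at cellularization, and 0.096, 0.10 and 0.035 at gastrulation. The mean difference over the 9 libraries was -0.017 on the log2 scale (exact sign-flip permutation test, two-sided, p = 0.0352, adjusted 0.114 over 4 tests), which did not pass the adjustment. It was 0.00068 in syncytium embryos, -0.039 at cellularization and -0.012 at gastrulation, and the difference between stages did not pass the test (exact permutation p = 0.0571, adjusted 0.114 over 4 tests). The 3 libraries of a stage share a mean and are not independent. Over the 3 stage means the p was 0.5, where the smallest possible is 0.25. By the root mean square in place of the median, which weights the most variable genes, the difference was 0.0046 (exact p = 0.754), so its sign depends on the summary.

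**Figure D3:**
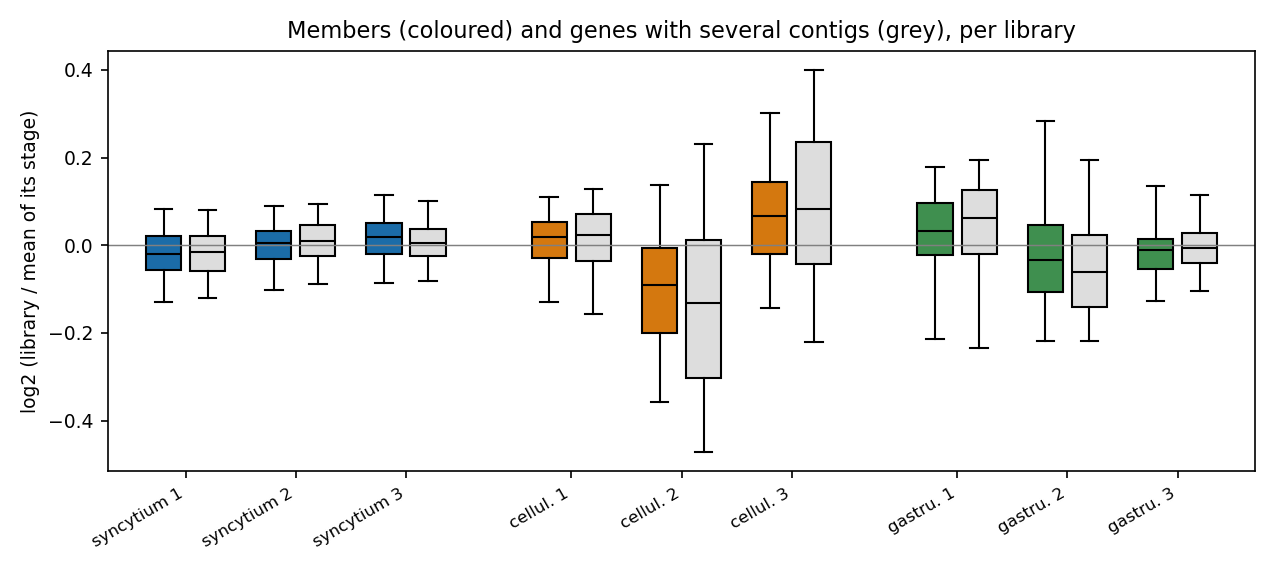
Log2 ratio of each library to the mean of its stage for members (coloured) and for genes of the same length and level with several contigs (grey). Boxes span the middle 50% of genes with the median as a line, and whiskers reach from the 5th to the 95th percentile. The medians of cellularization replicate 2 lie below 0 in both classes, at -0.091 and -0.13.

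Members with a large range between libraries were few. The highest library was at least 2 times the lowest in 1 of 230 members in the syncytium, 7 of 156 at cellularization (4.49%) and 2 of 145 at gastrulation, beside 0.271%, 4.92% and 1.77% of all genes at 100 to under 1000 TPM. At 1.5 times it was 6, 16 and 7 members, or 2.61%, 10.3% and 4.83%, beside 1.22%, 20.2% and 5.76% of all genes of that level. Of the genes with several contigs, 0.752%, 26.5% and 3.13% had a 1.5-fold range. The share of members was thus below theirs at cellularization and above it in the syncytium and at gastrulation, where 2-fold ranges numbered 2 of 145 members and 0 of 224 genes with several contigs. All 7 members with a 2-fold range at cellularization had replicate 3 as their highest or lowest library, and without that library the count was 0. Over all genes at 100 to under 1000 TPM the count fell likewise, from 57 to 1 of 1159. Without replicate 2 it was 3 members and 30 of all genes. At gastrulation the count was 0 members and 7 of all genes without replicate 2, against 2 and 20 with all libraries. A range over fewer libraries cannot be larger, so leaving out any library can only lower or keep these counts. They do not measure the effect of the omitted library alone.

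The most variable member of cellularization, TRINITY_DN5560_c0_g1 of 1160 bases, was at 159, 118 and 505 TPM (CV 81.5%) and had no partner in its component. Its value in replicate 3 stood alone above both others. The most variable of the syncytium, TRINITY_DN8111_c0_g2 of 1804 bases, was at 206, 357 and 142 TPM (CV 47.0%). Its partner TRINITY_DN8111_c0_g1 of 1805 bases was at 55.0, 51.0 and 23.9 TPM, and the component as a whole still varied with a CV of 43.9%. The most variable of gastrulation, TRINITY_DN4187_c0_g1 of 1336 bases, was at 234, 38.5 and 165 TPM (CV 67.9%). Its partner TRINITY_DN4187_c0_g2 of 1333 bases was at 432, 477 and 423 TPM, highest in the library where the member was lowest. Together they had 665, 516 and 588 TPM and a CV of 12.7%.

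At the other end, TRINITY_DN58580_c0_g1 of gastrulation, 1706 bases long, was at 211.8, 212.4 and 212.3 TPM (CV 0.161%). TRINITY_DN6953_c0_g1 of the syncytium, of 1373 bases, was at 185.8, 186.0 and 186.5 TPM (CV 0.199%). TRINITY_DN4147_c0_g1 of cellularization, of 1250 bases, was at 105.7, 104.2 and 105.8 TPM (CV 0.840%). All 3 lay closer together than counting error would give at their counts, and they were picked as the smallest of 230, 156 and 145 values.

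**Figure D4:**
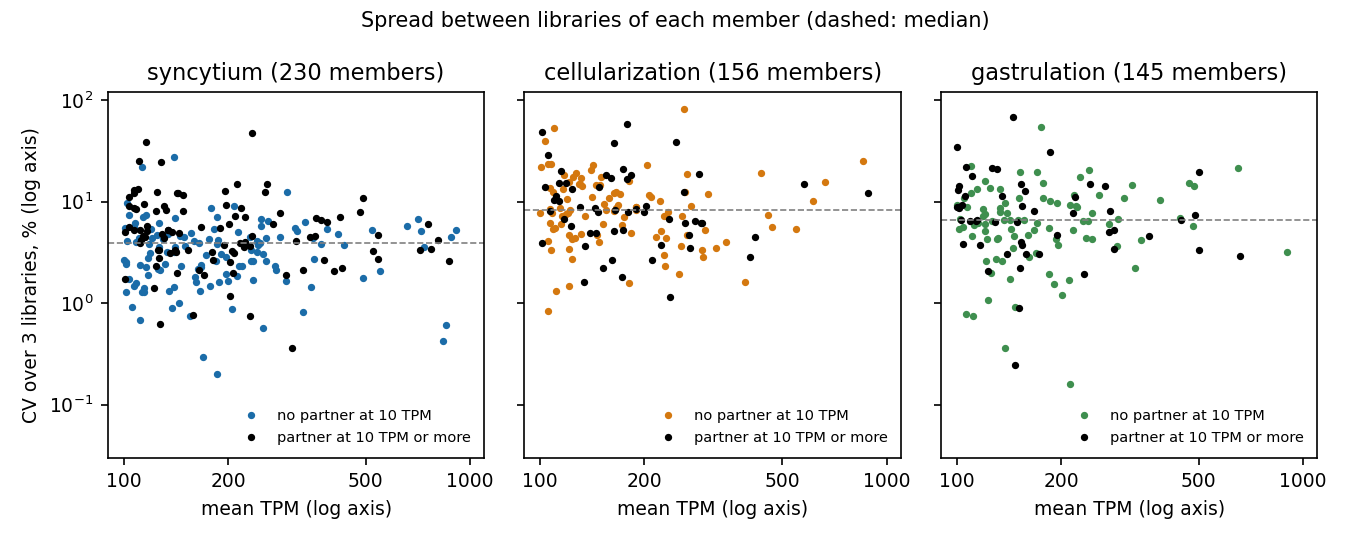
CV over 3 libraries in percent against mean TPM, both on log axes, with 1 point per member and stages in panels. Black points have a partner gene at 10 TPM or more in their component, and the dashed line is the median, at 3.91%, 8.27% and 6.55%. Members with a high CV occur with and without a partner.

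Partners were frequent, and a minority of members had one at 10 TPM or more. A partner of any level was present for 177 members in syncytium embryos, 113 at cellularization and 114 at gastrulation. A partner at 10 TPM or more was present for 101 (43.9%), 56 (35.9%) and 52 (35.9%), and a partner more abundant than the member itself for 24, 15 and 15. The member held a median of 92.6%, 95.9% and 95.6% of its component's TPM where it had a partner. A partner of nearly the same length, within 10 bases, was present for 21, 15 and 16 members. The shares with a partner at 10 TPM or more, or of nearly the same length, were not computed for other genes.

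Some partners were given the same level as the member. TRINITY_DN6108_c0_g1 and TRINITY_DN6108_c0_g2 of gastrulation, both members of 1277 bases, each had 3716 estimated counts and 139.6 TPM in replicate 3. In replicates 1 and 2 they had 79.0 and 81.8 TPM against 168 and 249 TPM. TRINITY_DN5708_c0_g1 and TRINITY_DN5708_c0_g2 of cellularization, both of 1820 bases, each had 186.3 TPM in replicate 3, and 188 and 162 against 149 and 130 TPM in replicates 1 and 2. These 4 members were the only ones with a partner of equal TPM, to within 1e-09 TPM, in any library, and they were chosen after their values were seen. Estimated counts divide reads that match several contigs, so the division between such partners is uncertain and their levels are best read as sums, at 247, 331 and 279 TPM for the first pair and 337, 293 and 373 TPM for the second.

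Where a member had a partner at 10 TPM or more, its component varied less than the member in 77 of 101 cases in the syncytium (76.2%), 32 of 56 at cellularization (57.1%) and 29 of 52 at gastrulation (55.8%). A sum of levels can vary less than its parts, and these shares were not computed for other genes. They are therefore not read as a trait of the members. The median CV of these members was 4.80%, 8.22% and 6.97%, and that of their components 3.36%, 9.43% and 6.47%. Among the 10 members with the largest CV, 8 had such a partner in syncytium embryos, 5 at cellularization and 6 at gastrulation. In the syncytium the median CV of those 10 was 23.2% and that of their components 4.31%, while at cellularization it was 38.9% and 33.1%, and at gastrulation 22.1% and 14.8%. A member alone in its component has the CV of its component by definition, so these component medians also depend on how many of the 10 had a partner. The 10 were picked for a large CV, and the differences were not tested. Members alone in their component had a median CV of 3.94%, 10.1% and 7.24%, not below that of members with a partner at 10 TPM or more in cellularization and gastrulation.

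**Figure D5:**
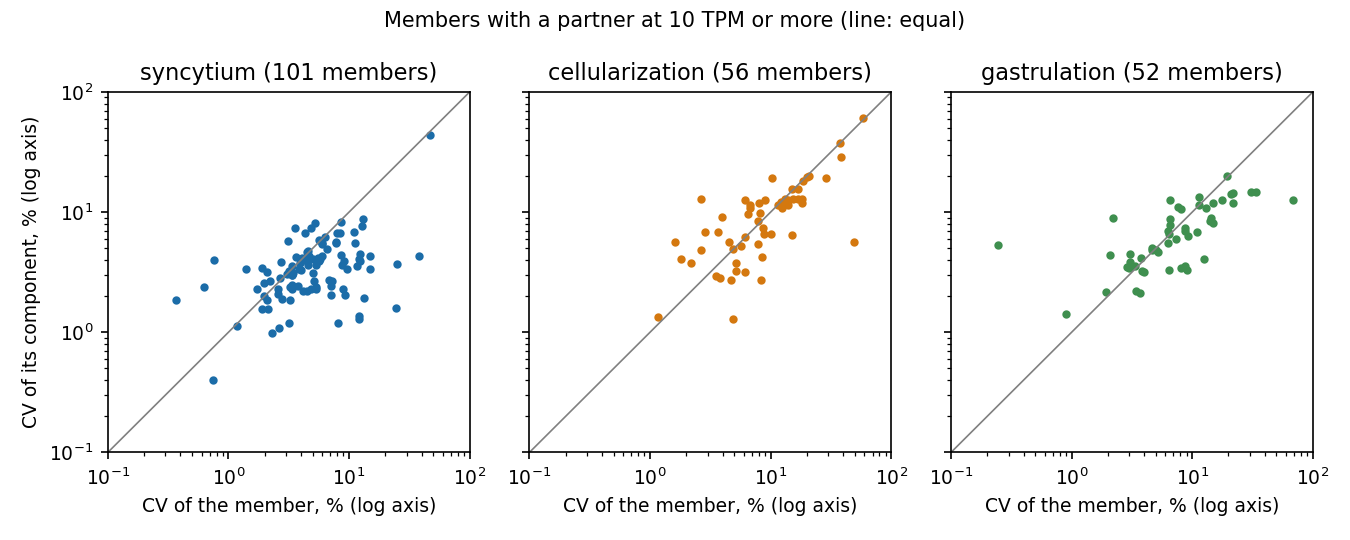
CV over 3 libraries of the summed TPM of a component against the CV of its member, in percent on log axes, for members with a partner gene at 10 TPM or more (101, 56 and 52). Points under the line have a component that varied less than the member, which holds for 77, 32 and 29 of them.

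With components in place of genes the set became much smaller. Components of 1 contig with the same length and level numbered 53 in syncytium embryos, 43 at cellularization and 31 at gastrulation, or 10.7%, 13.2% and 8.66% of all components of that length and level. Their summed level was 13946, 9504 and 5826 TPM. The number was again highest in the syncytium and lowest at gastrulation, but the share was highest at cellularization.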

How the data were processed

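Each of the 9 libraries has a deposited table with 1 row per contig. Per the file headers it holds length, effective length, estimated counts and TPM, and per the submitters' processing notes kallisto 0.44.4, FastQC 0.11.7 and MultiQC 1.5 were used. The deposited estimated counts, with no normalization, sum to between 28099549 and 51201882 per library. The TPM values deposited by the authors sum to 1000000 per library over the contigs of that stage's assembly. No source used here gives the assembler's version. Deposited lengths are in bases. Contigs were summed per gene (name without the part after _i), and the longest contig gave a gene's length. The members and lists were chosen with earlier results of these data known. Named are, per stage, the members with the highest mean, nearest to 100 TPM and with the largest and smallest CV, and the genes nearest outside the thresholds. Tests are exact permutations over libraries, computed with Python 3.11.15. Dispersions come from edgeR 4.0.16 (TMM, filterByExpr, intercept only) on estimated counts rounded to whole numbers. Tests were checked on simulated data. edgeR's tagwise dispersions are shrunk toward those of all genes, so they are not used to tell members from other genes. p-values measure the spread between these libraries only, and counting error assumes independent reads.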

Additional observations from a re-analysis of the deposited data

How the results depend on the processing

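Values are given for the syncytium, cellularization and gastrulation in turn. The number of members (230, 156, 145) was 94, 51 and 45 at 200 to under 1000 TPM, 367, 258 and 233 at 750 to under 2500 bases, 53, 43 and 31 per component, and 351, 278 and 296 after rescaling to genes under 1000 TPM. The share (46.4%, 44.3%, 39.3%) was 45.5%, 45.9% and 38.3% with every library in the level range, 44.3%, 33.8% and 28.8% at 200 TPM or more, 45.5%, 42.8% and 38.0% at 750 to under 2500 bases, and 49.1%, 46.5% and 41.2% counting only contigs at 1 TPM or more. It was 10.7%, 13.2% and 8.66% per component, 40.9%, 36.1% and 35.1% by the most abundant contig's length, 40.4%, 36.9% and 34.9% by TPM-weighted length, and 49.0%, 47.8% and 45.5% after rescaling. With no upper limit it was 43.0% at cellularization and 37.1% at gastrulation, and by rank 41.2% at gastrulation. Leaving out 1 library gave 45.9% to 46.6% in the syncytium. The summed TPM (53229, 31068, 28502) was 50856, 27837 and 26270 with every library in range, 86947, 62455 and 48397 with no upper limit, 34629, 16644 and 14837 at 200 TPM or more, 86076, 53199 and 49409 at 750 to under 2500 bases, 58375, 34387 and 30253 for contigs at 1 TPM or more, and 13946, 9504 and 5826 per component. It was 38423, 25129 and 23442 in CPM from estimated counts, 78671, 62602 and 62513 after rescaling, and by rank 34590 at cellularization and 32895 at gastrulation. Leaving out 1 library gave 29758 to 32567 at cellularization and 27817 to 28645 at gastrulation.

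The test of replicate deviation over stages ranged from p = 0.0429 to 0.296 (exact permutation) on leaving out 1 library. In a stage with 1 library left out, deviations are taken from a mean of 2 libraries, so they nearly mirror each other and tend to be smaller. Gastrulation minus cellularization ranged from -0.040 to 0.018 on leaving out 1 library and was 0.0068 with TMM-scaled CPM. Members minus genes with several contigs ranged from -0.020 to -0.0080 on leaving out 1 library, with an exact p from 0.00781 to 0.0703, above 0.05 without syncytium replicate 2 or any 1 cellularization library, and was 0.0046 by the root mean square. With the replicate block, which flips libraries of 1 replicate number together, the value of -0.017 had an exact p of 0.25, the smallest this block allows. The replicate block gave an exact p of 0.222 over stages and 0.667 for the held-out share. Replicate numbers could not be checked as pairs across genes, because no gene is matched between stages. The median biological coefficient of variation was 0.237 at cellularization and 0.189 at gastrulation without the count filter. As 1 common dispersion over the members it was 0.0758, 0.143 and 0.136, against 0.0598, 0.183 and 0.113 for genes with several contigs, so the order of both classes differs between stages. Members with a 1.5-fold range numbered 6, 16 and 7. Those with a 2-fold range numbered 0 to 1, 0 to 6 and 0 to 2 on leaving out 1 library, beside 1 to 2, 1 to 55 and 3 to 19 of all genes of that level. Leaving out a library can only lower or keep such counts. The cause of these changes was not tested. Rescaling, ranks and the common dispersion were chosen after the data were seen.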
